A study of Mus musculus with 6 samples.

Results

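Sorting nexins, CHMP proteins and VPS proteins are families of endosomal trafficking proteins, and their genes were taken here as those measured by a probe set that names exactly 1 gene and whose symbol begins with Snx, Chmp or Vps followed by a digit. There were 58 such genes among the 12393 measured, namely 21 Snx, 9 Chmp and 28 Vps genes. A gene with several probe sets was represented by the brightest, judged by its mean of all 6 arrays. That mean is the only measured value that entered the choice of probe set, and the difference between the genotypes did not enter it. The families themselves were chosen with earlier results of these data known. The name of a family is no guarantee of a role, since Vps72 encodes a subunit of the SRCAP chromatin remodelling complex, and it was kept because the symbol rule includes it.

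Expression was measured on Affymetrix arrays, MOE430A by the series' design text and a Mouse430 chip by the sample titles, in CD11c+ cells that had been taken with magnetic beads from the spleens of untreated mice. The wild-type group held 3 arrays from C57BL/6J mice and the other group 3 arrays from mice hypomorphic for Atg16L1 on the same background, all at 8 weeks of age. A hypomorphic allele has reduced function, and ATG16L1 belongs to the complex that attaches LC3 to growing autophagosomes. The labels give neither the nature of the allele nor whether each replicate is a separate animal, and the spread behind the p-values may therefore be technical.

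Endosomes sort membrane proteins either towards the lysosome or back to the cell surface and the Golgi. The ESCRT complexes act in series on ubiquitinated cargo bound for the lysosome: early complexes gather it, CHMP proteins of ESCRT-III form filaments that pinch vesicles into the endosome, and the ATPase VPS4 takes the filaments apart. Retromer and retriever recycle cargo together with sorting nexins, whose PX domain binds phosphoinositides on endosomes, and the HOPS and CORVET complexes tether endosomes for fusion with each other and with lysosomes. ESCRT and HOPS also act in the closure of autophagosomes and their fusion with lysosomes.

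All values are deposited log2 signals of probe sets. Signals of different probe sets depend on their probes and were not ranked as expression. The probe set of Atg16l1 read 7.05, 7.11 and 7.04 in wild-type replicates 1, 2 and 3 and 6.13, 5.84 and 6.11 in the hypomorph, a log2 difference of -1.04 (SE 0.097, limma adjusted p = 0.00163). Of 11 measured dendritic cell markers 1 rose and 2 fell, with array means of 9.58 to 9.75 in wild type and 9.52 to 9.69 in the hypomorph. Those that fell were Itgax, for CD11c (limma adjusted p = 0.0341), and Zbtb46 (adjusted p = 0.0106), while H2-Ab1 did not pass. The 1 that rose was Xcr1 (log2 difference 0.456, adjusted p = 0.0382). Of the 11 differences 6 were above 0 and 5 below. Itgax was at 10.32 ± 0.13 in the wild-type group and 9.94 ± 0.07 in hypomorphs (here and below mean ± SD, n = 3), Zbtb46 at 8.53 ± 0.16 and 7.90 ± 0.11 and H2-Ab1 at 13.30 ± 0.04 and 13.38 ± 0.06. Of 20 measured markers of splenic macrophages 18 rose, with array means of 8.47 to 9.10 in wild type and 10.28 to 10.40 in the hypomorph, and of 7 B cell markers 4 fell, with array means of 8.54 to 8.95 and 8.00 to 8.42. Endothelial and stromal markers fell for 3 of 7 and platelet markers for 2 of 6, and neutrophil markers rose for 2 of 7, monocyte markers for 2 of 5 and erythroid markers for 1 of 5. Whether past the threshold or not, 3 neutrophil differences were above 0 and 4 below. For monocyte markers 4 were above and 1 below, and likewise for erythroid markers. None of 7 T cell and 6 NK cell markers passed with limma (2 T cell markers were lower at an unadjusted p under 0.05). The poly-A spike-ins, transcripts added before labelling, averaged 9.96, 9.53 and 8.95 on the wild-type arrays and 7.90, 7.58 and 7.59 on the hypomorph arrays. Hybridization controls were also lower in the hypomorph (11.35 ± 0.28 and 10.33 ± 0.06), as was 18S rRNA (9.43 ± 0.21 and 8.76 ± 0.06). Beta-actin probe sets at the 3' end exceeded those at the 5' end by 0.97 ± 0.04 and 0.74 ± 0.04 (log2). The part of other cell types, of the spike-in and other control signals and of RNA quality in the results that follow was not tested.

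Of the 58 genes, 11 rose in the hypomorph and 1 fell at a limma adjusted p under 0.05, that is 19.0% and 1.72% of them, where 9.76% and 8.47% of all genes tested rose and fell. Whether these shares differ from those of all genes was not tested. The gene that fell, Vps41, had another probe set that passed as higher. The median log2 difference of the 58 genes was 0.12 against -0.05 for all genes. The 3 hypomorph arrays lay above all 3 wild-type arrays for 28 of the genes (48.3%, against 18.5% of all genes) and below them for 4 (6.9%, against 22.5%). The differences were small: the genes that rose did so by 1.22-fold to 1.85-fold, and 2 of the 12 that passed changed by at least 1.5-fold. In these bulk samples fewer cells of a type and less RNA per cell cannot be told apart.

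The calls stood close to the threshold, with adjusted p-values from 0.00811 to 0.0447. Leaving out hypomorph replicate 1, 2 or 3 gave 1 rising member each time, Snx10. Leaving out wild-type replicate 1, 2 or 3 gave 9, 8 and 9. Rising genes among all genes also dropped, from 1210 to 605, 608 and 550 without a hypomorph array. Without a wild-type array they were 1105, 1184 and 991. Vps41 passed only without wild-type replicate 3. With the spike-in signal as a covariate limma called 0 members in either direction, and likewise 0 of all 12393 genes. At an unadjusted limma p under 0.05 that fit had 7 members higher and 1 lower, against 665 and 484 of all genes. Its standard errors were 2.96 times as large in the median. Among the 11 genes that rose, the lowest wild-type value was on replicate 1 for 10. This is a description of genes chosen by these values. Over all members, whether they rose or not, replicate 1 held the lowest wild-type value for 26 and the highest for 22. The count over all genes is not given. Replicate 1 was also the wild-type array with the highest spike-in signal and the lowest macrophage markers. A link between these signals and the values of the members was not tested. The title of wild-type replicate 1 carries a different leading number from the other 5.

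**Figure D1:**
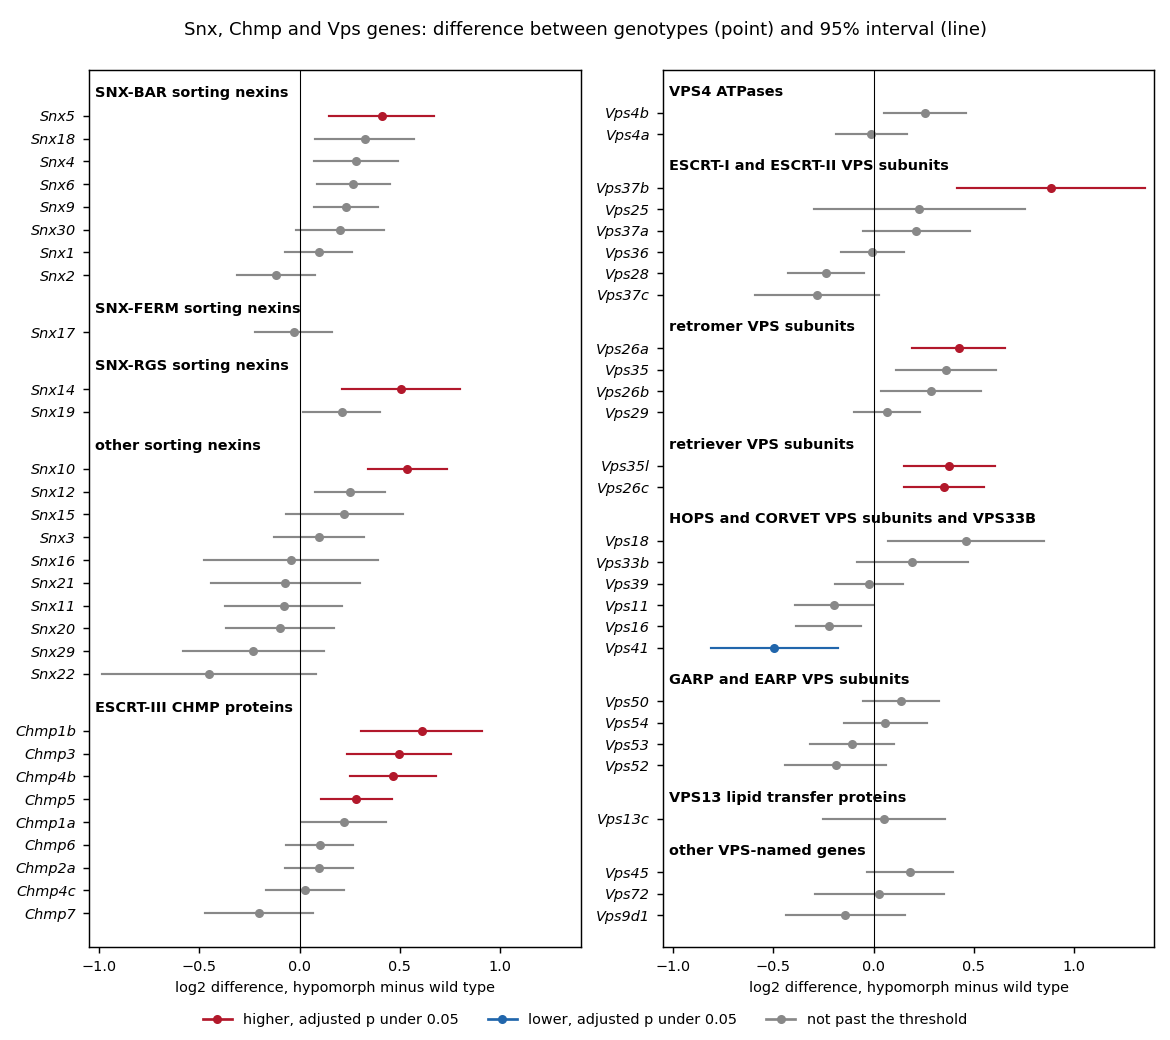
Log2 difference between hypomorph and wild type for each of the 58 genes, grouped by role, with the point at the estimate and the line its 95% interval. Red marks the 11 genes that rose and blue Vps41, which fell by the probe set that stands for it. Grey marks those that did not pass an adjusted p of 0.05. Most estimates lie between -0.5 and 0.5.

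**Figure D2:**
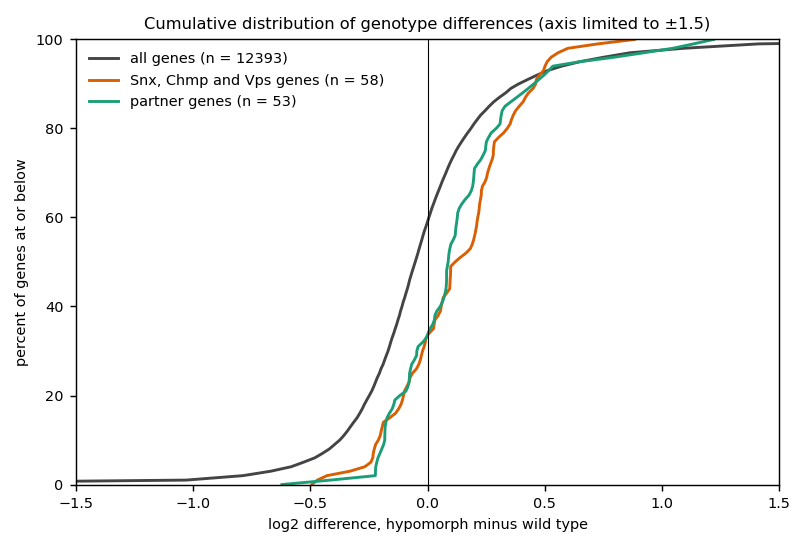
Cumulative share of genes (percent, vertical axis) at or below a given log2 difference between the genotypes (horizontal axis, drawn to ±1.5) for all 12393 genes, the 58 Snx, Chmp and Vps genes and 53 partner genes. The curves of both small sets run to the right of that for all genes over most of their course, with medians of 0.12 and 0.09 against -0.05.

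Promoter sequences are shown for 4 of the genes whose windows held a motif searched: 3 that rose, and Vps16, which shares its motif with 1 of them. RefSeq windows of GRCm38.p6, from 250 bases before to 50 after a transcription start, were held for 38 of the 58 genes, 8 of them among the 11 that rose. The windows were searched on both strands for the E-box CACGTG, for the palindrome made of that E-box with GT directly before it and AC directly after it, the core of the CLEAR element bound by TFEB, a factor that drives lysosomal genes, and for TGANTCA, the site of AP-1. The palindrome was in the windows of 2 genes, Vps26a and Vps16, 5.26% of the 38 against 0.37% of 27025 genes with a window. The E-box was in those of 5 genes (13.2%, against 8.09%) and TGANTCA in those of 3 (7.89%, against 8.97%). A match describes letters only. The 250 bases before a start are given below, 5′ to 3′ on the gene's strand, with matches in capitals: the palindrome in Vps26a (chr10:62486806-62487055, minus strand) and Vps16 (chr2:130424070-130424319, plus strand), the E-box in Snx5 (chr2:144270573-144270822, minus strand) and TGANTCA in Snx10 (chr6:51523834-51524083, plus strand).
Vps26a: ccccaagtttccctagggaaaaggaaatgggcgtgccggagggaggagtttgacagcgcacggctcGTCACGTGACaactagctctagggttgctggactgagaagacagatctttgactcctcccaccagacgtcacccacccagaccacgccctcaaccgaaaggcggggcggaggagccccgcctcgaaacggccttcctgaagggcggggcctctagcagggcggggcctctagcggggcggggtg
Vps16: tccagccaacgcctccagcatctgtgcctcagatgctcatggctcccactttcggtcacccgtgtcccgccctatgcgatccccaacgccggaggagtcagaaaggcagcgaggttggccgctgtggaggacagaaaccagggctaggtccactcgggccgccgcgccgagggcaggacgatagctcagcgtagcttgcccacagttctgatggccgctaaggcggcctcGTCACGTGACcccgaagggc
Snx5: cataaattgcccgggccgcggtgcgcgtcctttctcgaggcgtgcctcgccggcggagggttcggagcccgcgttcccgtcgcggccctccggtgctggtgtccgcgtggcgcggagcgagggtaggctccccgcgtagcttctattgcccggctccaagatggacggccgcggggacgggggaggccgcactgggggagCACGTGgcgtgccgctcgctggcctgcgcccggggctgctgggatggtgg
Snx10: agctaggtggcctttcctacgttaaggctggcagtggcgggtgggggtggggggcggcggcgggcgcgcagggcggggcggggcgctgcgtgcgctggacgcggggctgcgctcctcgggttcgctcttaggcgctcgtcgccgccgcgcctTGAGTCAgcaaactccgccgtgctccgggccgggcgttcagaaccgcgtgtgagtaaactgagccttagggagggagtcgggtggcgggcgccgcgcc
Relative to the start, the first base of the palindrome lay at -184 in Vps26a and -20 in Vps16. A second annotated start of Vps26a, whose window is not shown, had a palindrome at -153. The 2 genes with the same palindrome differed in direction, with log2 differences of 0.43 for Vps26a and -0.22 for Vps16, which did not pass (adjusted p = 0.0622). In Snx5 the E-box began at -50, and in Snx10 TGAGTCA began at -98.

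Among the CHMP genes of ESCRT-III, 4 of 9 rose and 0 fell (44.4% and 0.0%, where 9.76% and 8.47% of all genes did; limma found 5 higher and 0 lower at an unadjusted p under 0.05). Without hypomorph replicate 1, 2 or 3 limma called 0 of the 9, and without wild-type replicate 1, 2 or 3 it called 3, 3 and 2. Rising genes among all genes were also fewer in these fits, as given above. Chmp4b encodes the main filament-forming subunit, and its values were 9.98, 10.25 and 10.21 in wild type and 10.60, 10.64 and 10.60 in the hypomorph. It rose 1.38-fold (log2 difference 0.47, SE 0.091, adjusted p = 0.0171), and the 3 hypomorph arrays lay close together. Chmp1b, which encodes a subunit that recruits spastin and other factors to the filament, was the member of the family that rose most. It read 8.04, 8.34 and 8.51 against 8.86, 9.01 and 8.85, a 1.52-fold rise (log2 difference 0.61, SE 0.128, adjusted p = 0.0211). Chmp3, whose protein caps the filament with CHMP2, read 6.35, 6.71 and 6.49 against 7.11, 6.94 and 6.99 and rose 1.41-fold (adjusted p = 0.0241). Chmp5, which encodes a late-acting subunit that binds the VPS4 cofactor VTA1, went from 9.69 ± 0.08 to 9.97 ± 0.03, a 1.22-fold rise (adjusted p = 0.042). Chmp5 passed in 0 of the 6 fits that leave out an array (limma adjusted p from 0.0515 to 0.138). In none of these 4 genes did the groups overlap, which is largely given by their having passed.

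The other CHMP genes did not pass. Chmp1a was at 7.97 ± 0.12 and 8.19 ± 0.07, wild type first (here as below), (adjusted p = 0.132). Chmp2a, for the other capping subunit, was at 9.17 ± 0.06 and 9.26 ± 0.04, and Chmp6, which links ESCRT-II to the filament, at 7.34 ± 0.04 and 7.44 ± 0.05. In these 3 genes the hypomorph arrays still lay above the wild-type arrays, by narrow gaps. Chmp7, which recruits ESCRT-III to the nuclear envelope, was the CHMP gene with a difference below 0, at 7.07 ± 0.11 and 6.86 ± 0.18 (adjusted p = 0.254), with overlapping groups. Chmp4c, whose protein acts in the abscission checkpoint of dividing cells, had the dimmest signal of the family at 2.32 ± 0.06 and 2.34 ± 0.10, below the lower quartile of gene means (3.92).

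VPS4, the ATPase that removes CHMP filaments, has a pair of genes. Vps4b was higher in every hypomorph array, at 9.92, 10.13 and 10.13 against 10.27, 10.34 and 10.34, without passing (log2 difference 0.26, SE 0.086, adjusted p = 0.0824). Vps4a did not pass, at 7.86, 7.75 and 7.83 against 7.87, 7.76 and 7.77, with a 95% interval of its log2 difference from -0.19 to 0.17. In ESCRT-I and ESCRT-II, which act before the CHMP proteins, 1 of 6 VPS genes rose (16.7%, against 9.76% of all genes). In this group 0 fell, where 8.47% of all genes did (limma found 1 lower at an unadjusted p under 0.05). The gene that rose was Vps37b, which encodes 1 of the interchangeable VPS37 subunits of ESCRT-I and showed the largest rise of the 58 genes. Its values were 6.63, 7.15 and 7.45 in wild type and 8.08, 7.91 and 7.89 in the hypomorph, a 1.85-fold rise (log2 difference 0.88, SE 0.198, adjusted p = 0.026). The wild-type arrays were widely spread, replicate 1 being lowest, while the hypomorph arrays lay close together.

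The other VPS37 genes did not pass. Vps37c read 9.24, 9.05 and 8.77 against 8.84, 8.63 and 8.75, with overlapping groups (log2 difference -0.28, adjusted p = 0.182), and Vps37a 6.95, 7.30 and 7.03 against 7.40, 7.32 and 7.20 (0.21, adjusted p = 0.234). Within each array the log2 ratio of Vps37b to Vps37c was higher in the hypomorph by 1.16, without overlap of the groups; this ratio was chosen after the values were seen and was not tested. Vps28, a core ESCRT-I subunit, was lower in every hypomorph array, at 9.95 ± 0.05 in wild type against 9.72 ± 0.10, without passing (adjusted p = 0.0848). Vps36 of ESCRT-II was at 7.85 ± 0.03 and 7.85 ± 0.01, the smallest difference of the 58 genes. Vps25, also of ESCRT-II, had a dim signal (3.75 ± 0.41 and 3.98 ± 0.27).

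**Figure D3:**
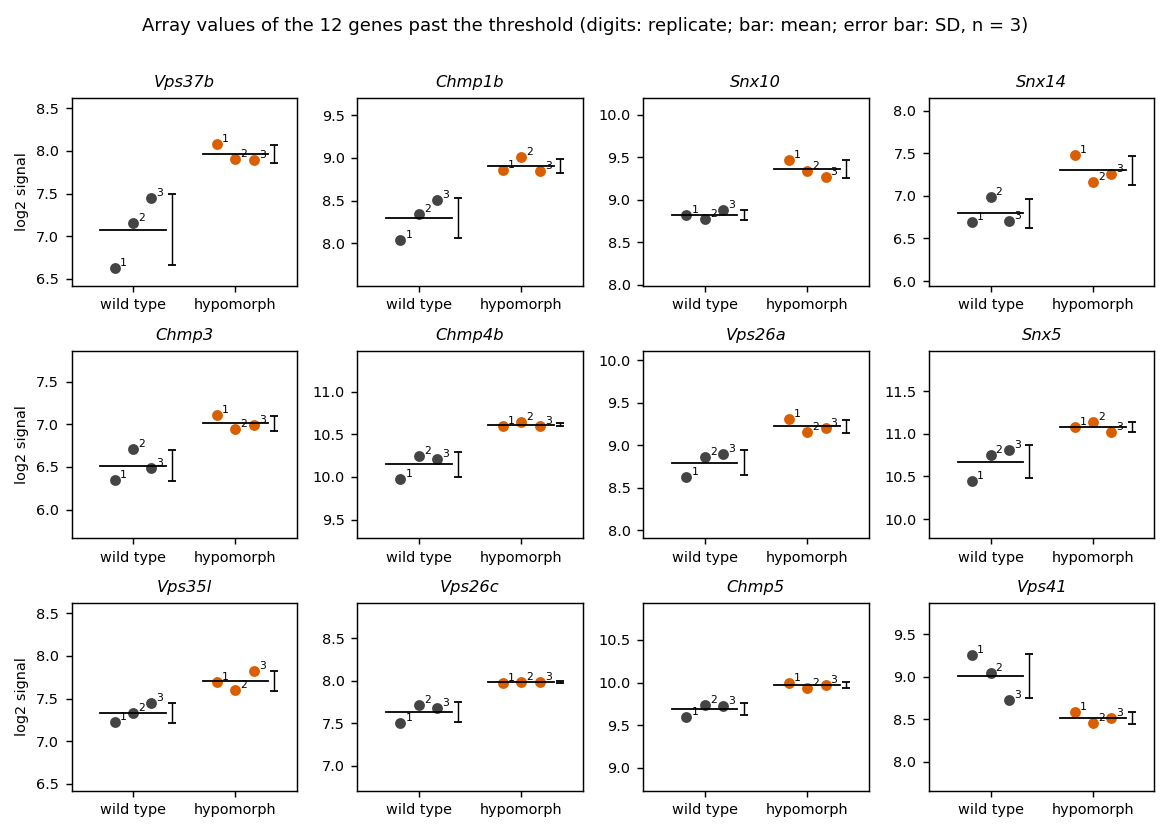
Log2 signal (vertical axis, with the same span in every panel) of the 12 genes that passed, for the 3 wild-type arrays (grey) and the 3 hypomorph arrays (orange), each point marked with its replicate number, with the mean as a bar and the SD as an error bar. The groups do not overlap in any panel, Vps37b has the largest gap, and only Vps41, by the probe set shown, is lower in the hypomorph. The genes were chosen by the test between these groups, so their separation is largely given by that choice.

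Retromer is built from VPS26, VPS29 and VPS35 and returns cargo such as sortilin and the mannose 6-phosphate receptors from endosomes. Of its 4 genes 1 rose and 0 fell (limma found 3 higher and 0 lower at an unadjusted p under 0.05). Of all genes 9.76% rose and 8.47% fell. In all 4 the hypomorph arrays lay above the wild-type arrays, as they did for 18.5% of all genes. The gaps were narrow for Vps26b, whose nearest values were 7.10 and 7.11, and for Vps29, where both were 10.18 after rounding. Vps26a read 8.63, 8.86 and 8.90 in wild type and 9.31, 9.15 and 9.20 in the hypomorph, a 1.34-fold rise (log2 difference 0.43, SE 0.098, adjusted p = 0.028). The scaffold gene Vps35 went from 9.51, 9.79 and 9.78 to 10.17, 9.97 and 10.03, a log2 difference of 0.36 (SE 0.106) just outside the threshold at an adjusted p of 0.0569. A second, dimmer probe set of Vps35 differed by -0.10 (adjusted p = 0.661), and the mean of both by 0.133 (adjusted p = 0.44). Vps26b, the paralogue of Vps26a, was at 6.91 ± 0.16 and 7.20 ± 0.09 (adjusted p = 0.104). Vps29, whose protein is shared with retriever, had the smallest difference, at 10.13 ± 0.04 and 10.20 ± 0.02 (adjusted p = 0.533).

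Both genes that are particular to retriever, a retromer-like complex that recycles integrins and LRP1 with SNX17, rose, as did 9.76% of all genes. Vps26c read 7.50, 7.72 and 7.68 against 7.97, 7.99 and 7.99, a 1.28-fold rise (log2 difference 0.35, SE 0.084, adjusted p = 0.0314), with nearly equal values on the hypomorph arrays. Vps35l, whose protein takes the place of VPS35, went from 7.22, 7.33 and 7.45 to 7.70, 7.60 and 7.82, a 1.3-fold rise (adjusted p = 0.0376). Its call was made in 1 of the 6 fits that leave out an array, and that of Vps26c in 2. A second, dimmer probe set of Vps35l differed by 0.22 (limma adjusted p = 0.227 over all probe sets) with overlapping groups. Snx17, for the adaptor of retriever, did not pass, at 10.77 ± 0.10 and 10.74 ± 0.05 (adjusted p = 0.827).

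Sorting nexins with a BAR domain bend membrane into tubules, and SNX1 or SNX2 pairs with SNX5 or SNX6 on the tubules that carry retrieved cargo. Of 8 measured, 1 passed, rising, and 0 fell (limma found 5 higher and 0 lower at an unadjusted p under 0.05). The share that rose was 12.5%, against 9.76% of all genes, and 8.47% of all genes fell. The hypomorph arrays lay above the wild-type arrays for 7, as they did for 18.5% of all genes. Snx5, the sorting nexin gene with the brightest signal, read 10.45, 10.75 and 10.81 in wild type and 11.08, 11.14 and 11.02 in the hypomorph, a 1.33-fold rise (log2 difference 0.41, SE 0.11, adjusted p = 0.0446). Snx6 went from 8.76, 8.76 and 8.62 to 9.03, 8.92 and 8.99, just outside the threshold (log2 difference 0.27, adjusted p = 0.055). The genes for their partners did not pass: Snx1 was at 7.98 ± 0.06 and 8.08 ± 0.02 (adjusted p = 0.398) and Snx2 at 10.59 ± 0.10 and 10.47 ± 0.06 (adjusted p = 0.369). Within arrays the log2 ratio of Snx5 to Snx2 was 0.52 higher in the hypomorph with no overlap, and that of Snx6 to Snx1 0.17 higher with overlap; both ratios were chosen after the values were seen and were not tested.

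Other BAR-domain sorting nexins act in endocytosis and recycling. Snx9, which binds dynamin at endocytic pits, read 8.31, 8.24 and 8.29 against 8.51 on each hypomorph array (log2 difference 0.23, adjusted p = 0.0557), a small gap with little spread. Its relative Snx18 was at 8.96 ± 0.14 and 9.28 ± 0.12 (adjusted p = 0.0734). Snx4, which acts in recycling of the transferrin receptor and in autophagy, was at 7.86 ± 0.13 and 8.14 ± 0.03 (adjusted p = 0.0685), and its partner Snx30 at 5.93 ± 0.10 and 6.13 ± 0.12 (adjusted p = 0.178).

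Snx10 rose with the smallest p of the 58 genes. Its protein, little more than a PX domain, is required for bone resorption by osteoclasts, and SNX10 mutations cause osteopetrosis. The values were 8.82, 8.77 and 8.88 in wild type and 9.47, 9.34 and 9.27 in the hypomorph, a 1.45-fold rise (log2 difference 0.54, SE 0.083, adjusted p = 0.00811). It was the 1 member called in all 6 fits that leave out an array (adjusted p from 0.0166 to 0.0395). Snx14, which encodes a protein with an RGS domain that sits on the endoplasmic reticulum at lipid droplets, rose 1.42-fold, from 6.69, 6.99 and 6.70 to 7.48, 7.16 and 7.26 (adjusted p = 0.034). Its relative Snx19 was at 7.29 ± 0.08 and 7.49 ± 0.07 without overlap (adjusted p = 0.116).

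The remaining sorting nexin genes did not pass. Snx12 was at 7.61 ± 0.07 and 7.87 ± 0.04 (adjusted p = 0.0582), and the arrays did not overlap. Its close relative Snx3, which recruits retromer for the recycling of Wntless, overlapped between the groups at 10.42 ± 0.07 and 10.52 ± 0.14. The log2 differences of the other 7 (Snx11, Snx15, Snx16, Snx20, Snx21, Snx22 and Snx29) ran from -0.45 for Snx22 to 0.22 for Snx15, with overlapping groups in each. Snx22 had the widest spread among them, at 7.76, 7.26 and 6.83 in wild type against 7.00, 6.70 and 6.78 (adjusted p = 0.208). Snx20, whose protein binds the selectin ligand PSGL-1 in leukocytes, was at 7.71 ± 0.13 and 7.61 ± 0.17, and Snx29 had the dimmest signal of the family at 4.41 ± 0.18 and 4.18 ± 0.24.

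HOPS and CORVET share a core of VPS11, VPS16, VPS18 and VPS33A, to which HOPS adds VPS39 and VPS41. Of 6 genes of this group, which also holds Vps33b, 0 rose and 1 fell (limma found 1 higher and 3 lower at an unadjusted p under 0.05). The shares over all genes were 9.76% and 8.47%. The gene that fell was Vps41, at 9.25, 9.04 and 8.73 in wild type and 8.58, 8.45 and 8.51 in the hypomorph (log2 difference -0.49, SE 0.133, adjusted p = 0.0447). That call depends on the probe set. A second probe set of Vps41 with nearly the same mean signal (8.71 against 8.76) read 8.45, 8.69 and 8.48 against 8.94, 8.84 and 8.88 and passed in the opposite direction (log2 difference 0.34, limma adjusted p = 0.0424 over all probe sets). The remaining, dimmer one was also higher in mean without passing (0.20, adjusted p = 0.215), and the mean of the 3 differed by 0.015 (adjusted p = 0.924). No direction for Vps41 as a gene is therefore given.

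Within the shared core the genes differed in sign without passing. Vps16 was lower in every hypomorph array, at 7.93, 7.96 and 7.91 against 8.12, 8.17 and 8.19 (log2 difference -0.22, adjusted p = 0.0622), with little spread in either group. Vps11 was also lower in each, at 7.39 ± 0.11 and 7.20 ± 0.01 (adjusted p = 0.141). Vps18 was higher in each, at 5.06, 5.35 and 5.72 against 5.95, 5.82 and 5.75 (log2 difference 0.46, adjusted p = 0.0973), but its other probe set, of like signal, differed by 0.06 (adjusted p = 0.65). Vps39 overlapped between the groups, at 8.00 ± 0.05 and 7.97 ± 0.05. Vps33b, whose protein pairs with VIPAS39 outside HOPS, was at 5.46 ± 0.07 and 5.66 ± 0.21 (adjusted p = 0.292).

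Genes of the tethers that receive endosomal vesicles at the Golgi or on recycling endosomes, GARP and EARP, did not pass in either direction (0 of 4). By limma 0 were under an unadjusted p of 0.05 as well. Of all genes 9.76% rose and 8.47% fell. Vps50, particular to EARP, was at 7.15 ± 0.05 and 7.29 ± 0.09, Vps54, particular to GARP, at 8.23 ± 0.11 and 8.29 ± 0.07, and the shared Vps52 and Vps53 at 5.07 ± 0.15 and 4.88 ± 0.12 and at 7.75 ± 0.12 and 7.64 ± 0.07. A second probe set of Vps54 was lower in every hypomorph array without passing (log2 difference -0.24, adjusted p = 0.0784). The others were Vps45 for a fusion regulator of early endosomes (log2 difference 0.18, adjusted p = 0.214), Vps9d1 (-0.14, adjusted p = 0.482), Vps72 (0.03, adjusted p = 0.905) and the lipid transfer gene Vps13c, whose signal of 3.30 ± 0.24 and 3.36 ± 0.09 was the dimmest of the Vps genes. In all 4 the groups overlapped.

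Probe sets that did not stand for a gene give a second reading of the same RNA. There were 35 of them for 25 of the genes, and 28 had a difference of the same sign as the one that stood for the gene. By limma 7 of the 35 passed as higher and 0 as lower (adjusted over all probe sets). The same shares among the other probe sets of all genes were not counted, so these have no background to be read against. The probe sets were read on the same 6 arrays, so their agreement is not independent. All 5 probe sets of Snx5 were higher in every hypomorph array, by 0.37 to 0.74 on the log2 scale, and 4 of them passed. Snx6, outside the threshold by its brightest probe set, passed by another (log2 difference 0.47, adjusted p = 0.0114). Both probe sets of Chmp4b (0.47 and 0.48) and of Chmp1b (0.61 and 0.535) passed, whereas the second of Chmp3, of nearly the same signal as the first, differed by 0.07 (adjusted p = 0.619) with overlapping groups. Of the 12 genes past the threshold 6 had a single probe set, 3 had another that passed the same way, and 1, Vps41, had another that passed the opposite way. The rest, Chmp3 and Vps35l, each had another that did not pass.

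**Figure D4:**
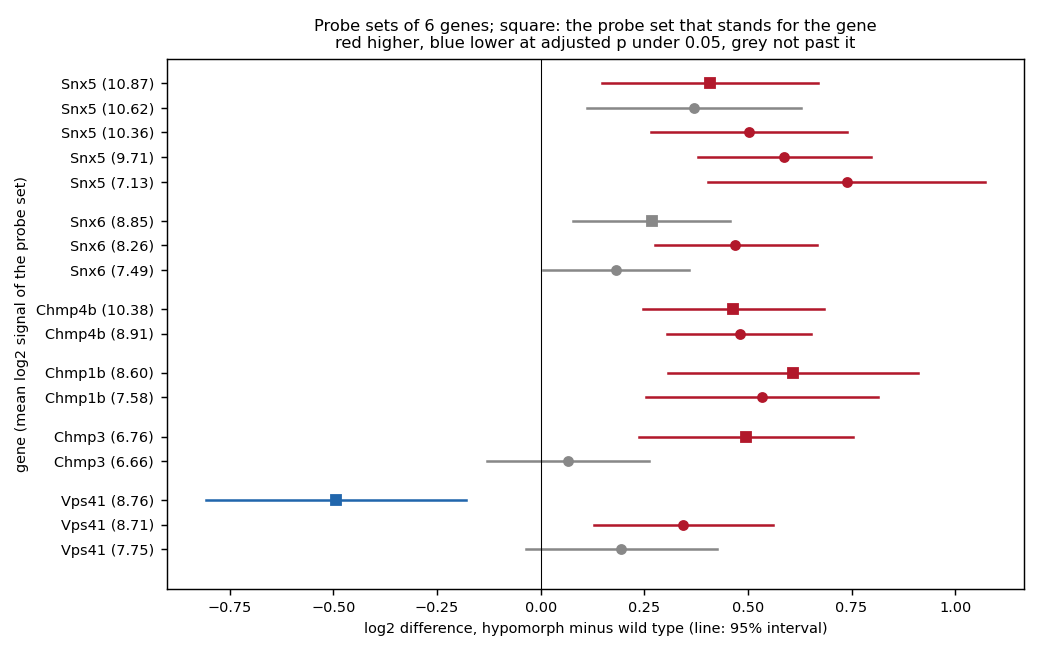
Log2 difference between hypomorph and wild type (horizontal axis, line: 95% interval) for each probe set of 6 genes, with the mean log2 signal of the probe set in brackets, squares for the probe set that stands for the gene, and colours for an adjusted p under 0.05 (red higher, blue lower). All Snx5, Snx6, Chmp4b and Chmp1b probe sets lie to the right of 0, those of Chmp3 differ in size, and those of Vps41 lie on both sides.

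Other genes of the same pathways, chosen as 8 lists of 64 genes, were measured for 53. Of these 7 rose and 1 fell (13.2% and 1.89%, against 9.76% and 8.47% of all genes), with a median log2 difference of 0.09. Mtm1, counted as rising, and Washc4, the 1 that fell, had no other probe set that passed the same way. Among cargo receptors of retromer and the sorting nexins 3 of 7 rose and 0 fell (limma found 3 higher and 1 lower at an unadjusted p under 0.05). The share that rose was 42.9%, against the 9.76% of all genes. Sort1, for sortilin, read 7.40, 7.38 and 7.22 against 8.63, 8.19 and 8.35 and rose 2.08-fold (adjusted p = 0.0031), and both its other probe sets passed the same way. Lrp1, for a scavenging receptor that SNX17 recycles and macrophages carry, went from 7.36, 7.94 and 7.60 to 8.91, 8.76 and 8.89, a 2.33-fold rise (adjusted p = 0.00329). M6pr, for the cation-dependent mannose 6-phosphate receptor, named after its value was seen, rose 1.45-fold (10.23 ± 0.11 to 10.77 ± 0.02, adjusted p = 0.00762). The other receptors, among them Sorl1 and the transferrin receptor gene Tfrc, did not pass, with log2 differences from -0.22 to 0.15.

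In ESCRT-0, which binds ubiquitinated cargo first, Stam2 rose 1.42-fold by its brightest probe set (6.80 ± 0.06 to 7.30 ± 0.01, adjusted p = 0.00564). Of its 4 other, dimmer probe sets 1 passed the same way (log2 difference 0.429, adjusted p = 0.0267) and 3 did not (0.031 to 0.163), and the mean of all 5 did not pass (0.232, adjusted p = 0.0533). Hgs did not pass (7.70 ± 0.22 and 7.63 ± 0.04, adjusted p = 0.726). Tsg101, the ubiquitin-binding subunit of ESCRT-I, was at 7.68 ± 0.07 and 7.90 ± 0.03 and did not pass (adjusted p = 0.0752). Usp8, for a deubiquitinase that acts on ESCRT-0 and its cargo, rose 1.19-fold (adjusted p = 0.0495). Capza2, which encodes a capping protein of actin found with the WASH complex on endosomes, rose 1.34-fold (adjusted p = 0.00937), and the WASH subunit gene Washc4 fell by 0.62 on the log2 scale (6.53 ± 0.30 to 5.91 ± 0.18, adjusted p = 0.0446), a call that its 2 other probe sets did not make (adjusted p = 0.263 and 0.585). Mtm1, for a phosphoinositide phosphatase, rose 1.76-fold by its brightest probe set (adjusted p = 0.00295) and was lower past the threshold by both others, with log2 differences of -1.29 and -1.52, so its direction depends on the probe set. By limma none of 9 COMMD, CCDC22 and CCDC93 genes passed (0 also at an unadjusted p under 0.05), nor did any of 4 regulators of retromer and HOPS (2 higher at an unadjusted p under 0.05). Over all genes 9.76% rose and 8.47% fell.

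The spread was wider in wild type for 46 of the 58 genes, with a median SD of 0.121 against 0.087 in the hypomorph. Over all genes it was also wider in wild type, with a median SD of 0.142 against 0.089. Averaged over the 11 genes that rose, which were chosen by these same values, and relative to the wild-type mean, wild-type replicates 1, 2 and 3 stood at -0.17, 0.08 and 0.09 and the hypomorph replicates at 0.54, 0.46 and 0.46. Averaged over all 58 genes the same values were -0.02, 0.02 and -0.01 in wild type and 0.18, 0.08 and 0.11 in the hypomorph.

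**Figure D5:**
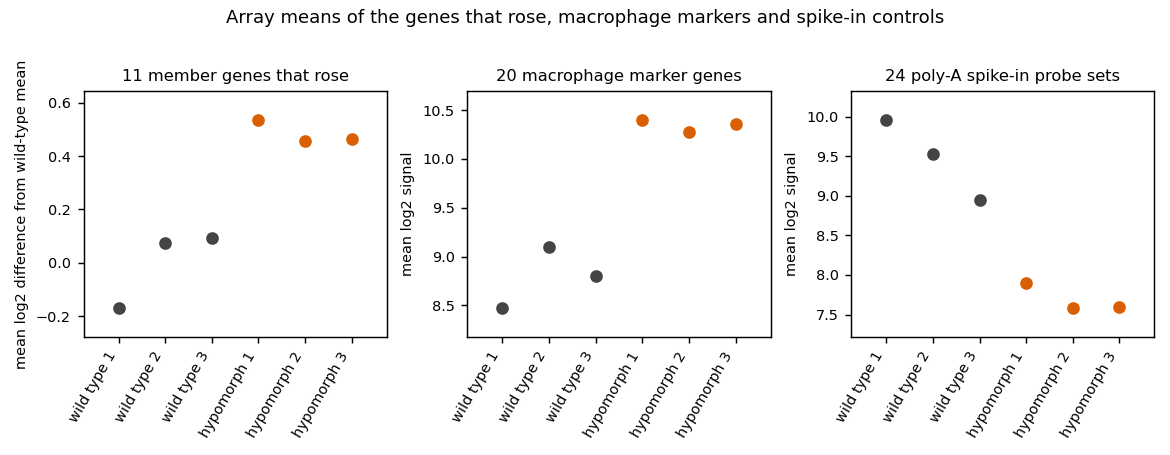
Array means of the 11 genes that rose (log2 difference from the wild-type mean), of 20 macrophage marker genes and of 24 poly-A spike-in probe sets (mean log2 signal), with wild-type arrays in grey and hypomorph arrays in orange. The genes of the first panel were chosen for being higher in the hypomorph, so its separation of the genotypes is given by that choice. Macrophage markers are higher and spike-ins lower on every hypomorph array, and wild-type replicate 1 has the lowest macrophage markers and the highest spike-ins of its group.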

How the data were processed

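Each probe set has 1 deposited value for each array, read here as log2 expression from the range of the values, since no source states the base. Affymetrix Power Tools produced the values, per the submitters' processing notes. The sources used here give neither its version nor the background correction or summarization. Array medians lay between 5.65 and 5.71, from which normalization between arrays by the authors was inferred. Precision is limited by the number of arrays. By their titles, wild-type replicate 3 was run on a differently named array and wild-type replicate 1 has another leading number; neither was resolved.

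Of 22625 non-control probe sets, 20379 named 1 gene by the platform annotation, and 2 labels naming a member together with another gene were not used. The test between genotypes was limma's (version 3.58.1, R 4.3.3, lmFit then eBayes, two-sided, no filter on dim probe sets), fitted to 12393 genes on all 6 arrays, with Benjamini-Hochberg adjusted p under 0.05 as the threshold; "rose" and "fell" refer to it. Intervals are 95% intervals of that fit. The script was tested on simulated data. Python 3.11.15 with pandas 2.3.3 and matplotlib 3.10.9 made tables and plots.

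The members, the lists of partners and markers, and the alternatives were chosen with earlier results of these data known. All members are described; values and tests in full were planned for those past the threshold, for retromer, VPS4 and CHMP genes, for the brightest and dimmest of each family, for the smallest p in role groups without a call, and among partners for Tsg101, Hgs and up to 2 per list and direction. No list was tested as a set. Alternatives were other ways to stand for a gene, filters on dim genes, other normalizations, fitting options, the replicate block, a minimum change, the spike-in covariate and leaving out each array.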

Additional observations from a re-analysis of the deposited data

How the results depend on the processing

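Of 17 alternatives to the analysis, counts of rising members were within 1.5 times of 11 under the mean of probe sets, single tests of every probe set, the lower quartile filter, quantile normalization, median centring and array weights (9 to 16). They were 18 with genes at or above the median signal and 18 with trend and robust fitting, which each kept all 12 calls and added 9. They were 0 with a minimum change of 1.5-fold (0 at an unadjusted p under 0.05 by limma) or the spike-in covariate. Over all genes 1210 rose in the main fit, 1308 with the median filter and 1429 with trend and robust fitting. With the minimum change 123 of all genes rose, and with the covariate 0. Falling members were 3 with the median filter, with quantile normalization and with trend and robust fitting, and 2 with the lower quartile filter and with array weights. They were 0 with the mean of probe sets (2 at an unadjusted limma p under 0.05), the minimum change and the covariate. Over all genes 1050 fell in the main fit, 4 with the minimum change, 0 with the covariate and 1016 to 1396 in the other fits of this comparison. Rising partners were 12 with the median filter and 0 with the minimum change (3 at an unadjusted p under 0.05) or the covariate (2), and falling ones 2 with quantile normalization and 0 with array weights (5), the minimum change and the covariate. Without 1 replicate, rising members ranged from 1 to 9, falling from 0 to 1, rising partners from 5 to 7 and falling from 0 to 1. Over all genes, rising counts then ranged from 550 to 1184 and falling ones from 192 to 1088. The causes were not tested.

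With the replicate block 3 members rose, Chmp1b, Chmp4b and Snx10, and 0 fell (20 and 4 at an unadjusted limma p under 0.05), against 7 and 1 partners. Of all genes 753 rose and 478 fell with the block. The numbers do not pair the arrays by their labels, and deviations of same-numbered arrays correlated at 0.153, 0.011 and 0.106.

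Signs turned with the spike-in covariate, none past the threshold, for Chmp1b (-0.153), Snx5 (-0.144), Vps37b (-0.270), Vps41 (0.388), Chmp7 (0.301), Chmp4c (-0.020), Snx17 (0.285), Vps26b (-0.119), Vps45 (-0.039), Vps4a (0.097), Vps4b (-0.101), Hgs (0.539) and Washc4 (0.410). They turned with the mean of probe sets for Chmp4c (-0.008), Vps41 (0.015) and Mtm1 (-0.661, adjusted p = 0.00558), with quantile normalization for Vps29 (-0.038) and with array weights for Hgs (0.012). Leaving out 1 replicate turned the sign in some fits for Chmp4c (-0.001 to 0.082), Snx17 (-0.060 to 0.027), Vps13c (-0.065 to 0.171), Vps4a (-0.045 to 0.014) and Hgs (-0.148 to 0.060).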
